A study of Mus musculus with 36 samples.

Results

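The genes described here are 9 members of retinoid metabolism and signaling, Aldh1a1, Aldh1a2, Aldh1a3, Crabp1, Crabp2, Rbp4, Stra6, Rarb and Cyp26b1, chosen by name out of the 43472 gene symbols of the count table. All 9 were listed in the table. None of the members tested differed between stimulations or times past an adjusted p of 0.05 in any of the 13 comparisons fitted. Crabp2 and Rbp4 were too sparse to test in any of these. Stra6 was tested only in the model joining 12 h and 24 h, and Cyp26b1 was not tested at 6 h. The nearest to a difference were Stra6, with more reads in TME-CM EGCs at 12 h and 24 h, Aldh1a2, with a higher mean in TME-CM than in unstimulated EGCs at 12 h, and Crabp1, with a lower mean in TME-CM EGCs at 24 h. Of 43 other genes of the pathway tested at 24 h, 5 were called higher in TME-CM than in H-CM EGCs, where 5.4% of all genes were called in either direction, including the retinoic acid carrier Fabp5 and the cytochrome Cyp1b1.

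The cells were primary enteric glial cells (EGCs), the glia of the gut's own nervous system, grown as neurospheres from the intestines of wild-type C57BL/6J mouse embryos and then spread in medium with serum. They were left unstimulated, or received conditioned medium of digested healthy colon (H-CM) or of digested orthotopic tumors of MC38, a mouse colon cancer line, that is of the tumor microenvironment (TME-CM), for 6 h, 12 h or 24 h. Each of the 9 groups held 4 libraries, 36 in all. Serum itself carries retinol, and the retinol content of the media during stimulation is not stated. The labels do not say whether the 4 libraries of a group were separate cultures, so the p-values measure the spread between these libraries, which may be technical.

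Retinol travels in blood bound to the carrier encoded by Rbp4 and enters some cells through the receptor encoded by Stra6. Inside the cell, retinol dehydrogenases make retinal, and the retinal dehydrogenases of the Aldh1a genes oxidize it to retinoic acid. Crabp1 and Crabp2 encode carriers of retinoic acid in the cytoplasm, Rarb encodes a nuclear receptor that retinoic acid activates, and the enzyme of Cyp26b1 breaks retinoic acid down. In the developing gut, retinoic acid is known for its part in the migration and growth of enteric nervous system precursors, and Rarb, Stra6 and Cyp26b1 are known to be induced by it in many cells.

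Rarb is the textbook case of such a target, since its promoter holds a response element read by retinoic acid receptors. RefSeq promoter windows of 300 bases (GRCm38.p6, 250 bases before to 50 after a start site) were found for 7 of the 9 genes, and all were searched on both strands for direct repeats of the hexamer AGGTCA or its variants AGTTCA and GGTTCA and also GGGTCA, in any pairing, with 5, 2 or 1 bases between the repeats. Only the Rarb window held one, with a spacing of 5, at -53 to -37 from the start (position 0). A spacing of 5 occurred in 32 of 32851 promoter windows (0.0974%), a spacing of 2 in 0.268% and a spacing of 1 in 0.222%. The window, on the minus strand at chr14:16575427-16575726, is shown because it carries this repeat, in capitals.
Rarb: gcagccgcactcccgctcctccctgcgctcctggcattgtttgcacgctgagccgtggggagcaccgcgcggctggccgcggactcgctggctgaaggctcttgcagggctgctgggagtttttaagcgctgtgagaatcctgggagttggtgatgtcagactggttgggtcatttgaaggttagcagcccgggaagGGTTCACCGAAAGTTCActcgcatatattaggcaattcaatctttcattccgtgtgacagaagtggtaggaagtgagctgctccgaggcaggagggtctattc
These letters are a match to a pattern and say nothing about binding in EGCs. A window without a match, as for Cyp26b1 and Stra6, lacks only these letters.

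Levels are counts scaled to the library size (CPM, per 1000000 counts), with sizes corrected by TMM factors computed over all 36 libraries. Since the kit primes at the 3′ end of the transcript, a CPM value here is not divided by length. Total counts ran from 13518 to 7552509, and the 6 h libraries were the shallowest, with a median of 1526580 against 5465090 at 24 h. H-CM replicate 4 of 6 h held only the 13518 counts and 3908 detected genes, and 1 read there is worth 36.8 CPM. A single entry, Yam1, took between 11% and 48.6% of a library's counts. Of the 10 glial markers checked, 9 had a count in at least 31 libraries, with a median of 66.9 CPM for Sox10 and 3.11 CPM for Gfap. Markers of other cells were not absent: the median was 2464 CPM for Acta2 of smooth muscle and 3227 CPM for Col1a1 of fibroblasts. In bulk RNA, fewer cells of a type cannot be told apart from less RNA per cell.

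The members fell into 2 classes of abundance. Aldh1a2, Crabp1, Aldh1a3, Aldh1a1, Rarb and Cyp26b1 had medians over the 36 libraries of 19.6, 17.2, 17.0, 10.9, 5.95 and 4.42 CPM. Stra6 had a median of 0.174 CPM and reads in 19 libraries, Rbp4 had reads in 9 libraries and Crabp2 in 8, the last 2 with medians of 0 CPM. The low-count filter accordingly kept 5 members for testing at 6 h (Aldh1a1, Aldh1a2, Aldh1a3, Crabp1 and Rarb), these and Cyp26b1 at 12 h and 24 h, and 7 with Stra6 in the model joining 12 h and 24 h. Crabp2 and Rbp4 passed it in no comparison.

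**Figure D1:**
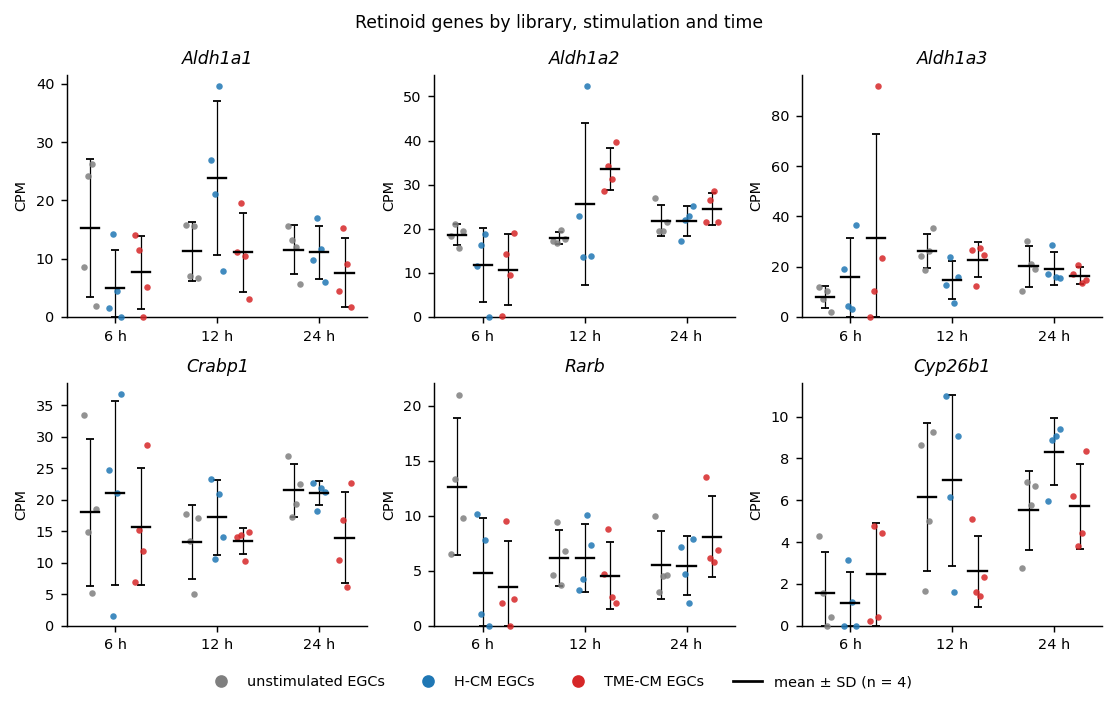
CPM of the 6 more abundant retinoid genes in each library (points) of unstimulated (grey), H-CM (blue) and TME-CM (red) EGCs, ordered by time in hours, with the mean and SD of 4 libraries in black (lower SD bars stop at 0). Groups overlap in nearly every panel, and the TME-CM libraries of Aldh1a2 at 12 h, at 28.5 to 39.8 CPM, lie above the unstimulated ones.

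Among the retinal dehydrogenases, Aldh1a2 (chromosome 9, 71215789 to 71296243, plus strand, GRCm38) makes most retinoic acid of the early embryo. Its levels in unstimulated EGCs at 12 h were 17.3, 16.8, 19.8 and 17.6 CPM in replicates 1 to 4. In H-CM EGCs they were 22.8, 13.5, 52.4 and 13.9 CPM, and in TME-CM EGCs 28.5, 34.3, 31.4 and 39.8 CPM. The TME-CM libraries all lay above the unstimulated ones, while the single H-CM library at 52.4 CPM lay above every TME-CM library. The mean in TME-CM EGCs was 33.5 CPM ± 4.80 (SD, n = 4) against 17.9 ± 1.35 in unstimulated EGCs, a log2 fold change of 0.89 (95% interval 0.16 to 1.63) whose adjusted p in edgeR's quasi-likelihood test was 0.237. Fitted to these 8 libraries alone, the same test gave an adjusted p of 0.0261. With each library left out in turn, it gave 0.278 to 0.495. Against H-CM EGCs the log2 fold change was 0.39 (-0.33 to 1.11, adjusted p = 0.768), and without H-CM replicate 3, the library at 52.4 CPM, it was 1.0 with an adjusted p of 0.0454. Leaving out other libraries brought it down to 0.17, with adjusted p of up to 0.927. By 24 h the means were 21.9 ± 3.58 CPM unstimulated, 21.8 ± 3.40 after H-CM and 24.5 ± 3.61 after TME-CM, with log2 fold changes of 0.17 (-0.22 to 0.56) against H-CM and 0.16 (-0.22 to 0.55) against unstimulated EGCs.

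Aldh1a1, on chromosome 19 (20492715 to 20643465, plus strand), encodes the retinal dehydrogenase of many adult tissues. At 12 h it measured 15.7, 6.95, 15.6 and 6.69 CPM in unstimulated EGCs, 26.8, 21.1, 39.6 and 7.89 CPM in H-CM EGCs, and 11.2, 19.6, 10.5 and 3.08 CPM in TME-CM EGCs. H-CM EGCs thus held the 3 highest libraries, but their lowest fell inside the range of both other groups. The log2 fold change of TME-CM against H-CM EGCs was -1.12 (-2.16 to -0.08), with an adjusted p of 0.415 in edgeR (0.0362 unadjusted), and that of H-CM against unstimulated EGCs was 1.09 (0.05 to 2.14, adjusted p = 0.862). Means at 24 h were 11.6 ± 4.20, 11.1 ± 4.60 and 7.61 ± 5.96 CPM in unstimulated, H-CM and TME-CM EGCs, and the difference of TME-CM from H-CM EGCs was -0.70 (-1.75 to 0.36). Its close neighbour in sequence, Aldh1a7, was listed at a median of 0.666 CPM, and reads shared by both genes would have been discarded by the authors, so the Aldh1a1 counts are uncertain to that extent.

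Aldh1a3, on chromosome 7 (66390890 to 66427517, minus strand), encodes the third of these enzymes. Unstimulated EGCs at 12 h had 24.4, 18.8, 26.2 and 35.4 CPM, H-CM EGCs 12.9, 23.7, 5.69 and 16.1 CPM, and TME-CM EGCs 26.7, 12.4, 27.3 and 24.6 CPM. H-CM EGCs lay lowest on average, with 1 library inside the unstimulated range. The log2 fold change of H-CM against unstimulated EGCs was -0.86 (-1.60 to -0.12, adjusted p = 0.764 in edgeR and 0.0247 unadjusted), and that of TME-CM against H-CM EGCs 0.65 (-0.09 to 1.38, adjusted p = 0.559). Later, at 24 h, it was -0.27 (-0.84 to 0.30), and the change of the difference between 12 h and 24 h, -0.90 (-1.85 to 0.06), had an adjusted p of 1.0. At 6 h, TME-CM EGCs spread from 0 to 91.8 CPM, which left an interval of -1.10 to 4.19 for the comparison with H-CM EGCs. The 3 Aldh1a genes did not run closely together: over the 24 libraries of 12 h and 24 h, log2 CPM of Aldh1a2 and Aldh1a3 had a Pearson r of -0.46, Aldh1a1 and Aldh1a2 0.15, and Aldh1a1 and Aldh1a3 -0.24, as a description of libraries that share treatments and differ in depth.

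Crabp1 (chromosome 9, 54764748 to 54773110, plus strand), the retinoic acid carrier known in neural crest derivatives, was the only member with a read in all 36 libraries. At 24 h it stood at 27.0, 17.3, 19.3 and 22.4 CPM in unstimulated EGCs, at 22.7, 18.3, 21.8 and 21.3 CPM in H-CM EGCs, and at 10.4, 16.8, 6.18 and 22.6 CPM in TME-CM EGCs. In TME-CM EGCs 3 libraries lay below every library of both other groups, and replicate 4 lay among them. The TME-CM mean of 14.0 ± 7.22 CPM compared with the H-CM mean of 21.0 ± 1.91 gave a log2 fold change of -0.62 (-1.22 to -0.02, adjusted p = 0.294), and against 21.5 ± 4.25 in unstimulated EGCs -0.64 (-1.24 to -0.05, adjusted p = 0.206). Without TME-CM replicate 4, edgeR's adjusted p was 0.0428 and 0.0204 for these comparisons, with log2 fold changes of -1.0 and -1.03. Over the 8 fits that each left out 1 library, the weakest log2 fold changes were -0.35 and -0.38. The highest adjusted p of these fits was 0.575 against H-CM and 0.506 against unstimulated EGCs. H-CM and unstimulated EGCs differed by -0.03 (-0.61 to 0.55). At 12 h the means were 13.3 ± 5.85, 17.2 ± 5.95 and 13.4 ± 2.08 CPM in unstimulated, H-CM and TME-CM EGCs, with 0.01 (-0.78 to 0.79) for TME-CM against unstimulated EGCs.

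The other carriers were at the edge of detection. Crabp2 (chromosome 3, 87948666 to 87953376, plus strand), which hands retinoic acid to its receptor, had 20 reads in all libraries together, at most 6 in one, and none in the 12 libraries of 6 h. The 4 libraries of a group at 24 h summed to 5 reads unstimulated, 5 after H-CM and 7 after TME-CM. Rbp4 (chromosome 19, 38116629 to 38125281, minus strand) had 42 reads in all. At 24 h its reads in replicates 1 to 4 were 0, 0, 2 and 0 in unstimulated EGCs, 1, 0, 4 and 0 in H-CM EGCs, and 3, 0, 10 and 11 in TME-CM EGCs. The sums of 24 after TME-CM and 5 after H-CM are a ratio of 4.68 at equal scaled depth, with an exact 95% counting interval of 1.75 to 15.7 that leaves out the spread between libraries. TME-CM replicate 2 had no read of Rbp4, and at 12 h none of the 4 TME-CM libraries had one. At 6 h the order was the other way, with 0, 7, 0 and 0 reads in H-CM EGCs and none in the other groups, and the 3.69 CPM of H-CM replicate 2 gave that group the highest mean of the 9, 0.921 CPM against 0.904 CPM in TME-CM EGCs at 24 h. With no filter on low counts, edgeR gave Rbp4 in TME-CM EGCs at 24 h an adjusted p of 0.502 against H-CM and 0.187 against unstimulated EGCs.

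Stra6 (chromosome 9, 58063788 to 58153996, plus strand), the retinol receptor, showed the widest contrast. At 12 h its reads were 0, 0, 3 and 2 in unstimulated EGCs, 0, 0, 0 and 1 in H-CM EGCs, and 14, 7, 1 and 11 in TME-CM EGCs. The later time gave 0, 0, 2 and 4, then 6, 0, 5 and 0, then 20, 1, 14 and 13 in the same order. At each of these times 3 of 4 TME-CM libraries lay above every library of both other groups, and 1 library, with a single read, did not. At 24 h the 48 reads of TME-CM EGCs, set against 11 after H-CM, are a ratio of 4.25 (2.18 to 9.08, counting error only), and against 6 unstimulated 8.87 (3.79 to 25.4). At 12 h the sum was 33 against 1 in H-CM EGCs, a ratio of 41.9 with an interval of 7.02 to 1706, and against 5 in unstimulated EGCs 6.30 (2.45 to 20.7).

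Stra6 was too sparse for the low-count filter at single times. With no filter, edgeR gave a log2 fold change of 3.00 ± 1.01 (SE) for TME-CM against unstimulated EGCs at 24 h with an adjusted p of 0.0462, and DESeq2 gave 3.13 with 0.0639. Against H-CM EGCs, the unfiltered log2 fold changes were 4.89 at 12 h (adjusted p = 0.174) and 1.95 at 24 h (adjusted p = 0.364). Within TME-CM EGCs, the model of 24 libraries put 24 h against 12 h at -0.15 (-2.04 to 1.73). At 6 h the highest library of the series appeared in unstimulated EGCs, where replicates 1 to 4 had 0, 0, 0 and 43 reads, so a single unstimulated library exceeded all TME-CM libraries.

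**Figure D2:**
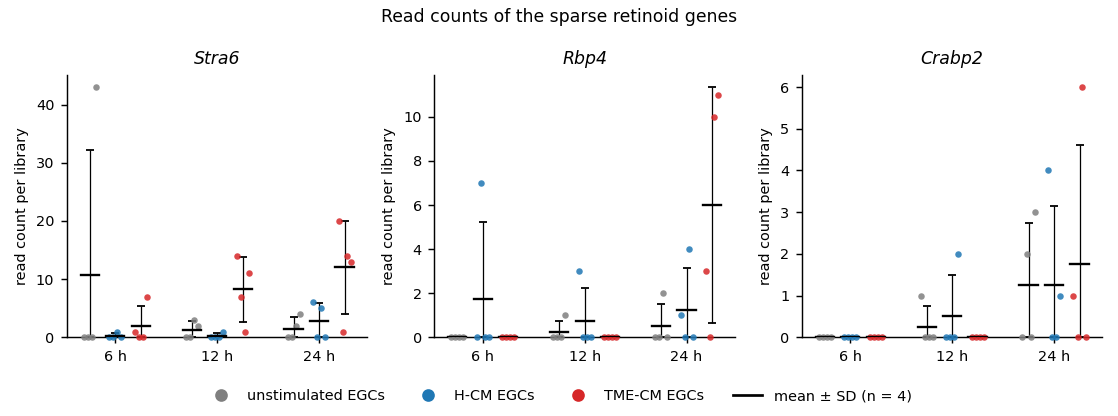
Read counts of Stra6, Rbp4 and Crabp2 in each library (points, colored by stimulation) at the 3 times, with the mean and SD of 4 libraries (lower SD bars stop at 0). At 12 h and 24 h, 3 of 4 TME-CM libraries have more Stra6 reads than every unstimulated and H-CM library, and the 43 reads at 6 h belong to 1 unstimulated library.

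Rarb lies on chromosome 14 (16430839 to 16819156, minus strand). At 24 h its levels were 10.01, 3.04, 4.50 and 4.56 CPM in unstimulated EGCs, 7.17, 4.69, 2.07 and 7.91 CPM in H-CM EGCs, and 13.5, 6.13, 5.77 and 6.87 CPM in TME-CM EGCs. All groups overlapped, as they did at 12 h, where the libraries ran from 3.70 to 9.40 CPM unstimulated, from 3.22 to 10.02 CPM after H-CM and from 2.05 to 8.78 CPM after TME-CM. Comparing TME-CM with H-CM EGCs, the log2 fold change was 0.67 (-0.23 to 1.56, adjusted p = 0.510) at 24 h and -0.48 (-1.67 to 0.72, adjusted p = 0.846) at 12 h, and that of H-CM against unstimulated EGCs at 24 h was -0.07 (-0.98 to 0.85). Rarb showed no difference that passed the test, and its intervals for TME-CM against H-CM EGCs still hold changes of 1 on the log2 scale. The window with the repeat lies inside the span of the gene. Counts per gene do not tell which promoter a transcript came from. Of its 5265 exonic bases, 1793 are also exonic in Top2b on the opposite strand, which had a median of 176 CPM. Whether the counting used strand is not stated, so reads from this stretch cannot be assigned, and the Rarb values are uncertain. Over the 24 libraries of 12 h and 24 h, log2 CPM of Rarb and Top2b had a Pearson r of -0.20.

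Cyp26b1 (chromosome 6, 84571414 to 84593908, minus strand), the enzyme that clears retinoic acid, had at 12 h 8.63, 1.64, 5.02 and 9.29 CPM in unstimulated EGCs, 11.01, 6.16, 1.59 and 9.05 CPM in H-CM EGCs, and 5.09, 1.60, 1.42 and 2.31 CPM in TME-CM EGCs. TME-CM EGCs were low on average, and the lowest libraries of both other groups reached down into their range. Against H-CM EGCs the log2 fold change was -1.37 (-2.74 to 0.00, adjusted p = 0.473) and against unstimulated EGCs -1.22 (-2.60 to 0.17, adjusted p = 0.521). Means at 24 h were 5.51 ± 1.90, 8.33 ± 1.58 and 5.71 ± 2.04 CPM in unstimulated, H-CM and TME-CM EGCs, and TME-CM against H-CM EGCs was -0.51 (-1.20 to 0.17, adjusted p = 0.508). Between 12 h and 24 h, Cyp26b1 in TME-CM EGCs went from a mean of 2.60 ± 1.70 to 5.71 ± 2.04 CPM, with a log2 fold change of 1.11 (0.04 to 2.18) and an adjusted p of 0.603. Cyp26b1 and Aldh1a2 had a Pearson r of -0.61 over the 24 libraries, the most negative of the 15 pairs among the 6 abundant members.

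At 6 h, in the shallowest libraries, the levels within a group spread widely. Aldh1a2 ran from 15.7 to 21.1 CPM in unstimulated EGCs, from 0 to 18.8 CPM in H-CM EGCs and from 0.233 to 19.0 CPM in TME-CM EGCs. Rarb ran from 6.47 to 21.0 CPM unstimulated, from 0 to 10.2 CPM after H-CM and from 0 to 9.53 CPM after TME-CM, and its log2 fold change of TME-CM against unstimulated EGCs was -1.88 with an interval of -4.65 to 0.90. The groups of both genes overlapped. Aldh1a3 stood at 18.9, 4.21, 3.33 and 36.8 CPM in H-CM EGCs, the last from a single read of the shallow replicate 4, and at 0, 10.5, 91.8 and 23.4 CPM in TME-CM EGCs. Without TME-CM replicate 3, which had 224 reads of Aldh1a3, its log2 fold change of TME-CM against H-CM EGCs went from 1.54 to 0.05, and without H-CM replicate 4 it was 1.95 (adjusted p = 0.938). Cyp26b1 reached at most 4.77 CPM in these 12 libraries and was not tested.

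The remaining 6 h comparisons had intervals that reached past 1 on the log2 scale in both directions, except Aldh1a3 in TME-CM against unstimulated EGCs (-0.46 to 4.52). Aldh1a1 differed by 0.21 for TME-CM against H-CM, by -0.98 for TME-CM against unstimulated and by -1.19 for H-CM against unstimulated EGCs. The same differences were -0.19, -0.28 and -0.09 for Crabp1, and -0.44, -0.85 and -0.41 for Aldh1a2. Rarb had -0.79 for TME-CM against H-CM and -1.08 for H-CM against unstimulated EGCs, and Aldh1a3 had 2.03 for TME-CM and 0.49 for H-CM against unstimulated EGCs. The lowest adjusted p of these was 0.815, for Aldh1a3 in TME-CM against unstimulated EGCs.

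At the later times, the log2 fold changes not given above were small or imprecise. TME-CM against unstimulated EGCs at 12 h gave -0.03 for Aldh1a1, -0.21 for Aldh1a3 and -0.47 for Rarb. At 24 h it gave -0.69 for Aldh1a1, -0.33 for Aldh1a3, 0.60 for Rarb and 0.04 for Cyp26b1. H-CM against unstimulated EGCs gave 0.51 for Aldh1a2, 0.36 for Crabp1, 0.01 for Rarb and 0.15 for Cyp26b1 at 12 h, and 0.00 for Aldh1a1, -0.01 for Aldh1a2, -0.06 for Aldh1a3 and 0.56 for Cyp26b1 at 24 h. Crabp1 had -0.35 for TME-CM against H-CM EGCs at 12 h. None of these had an unadjusted p under 0.05.

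**Figure D3:**
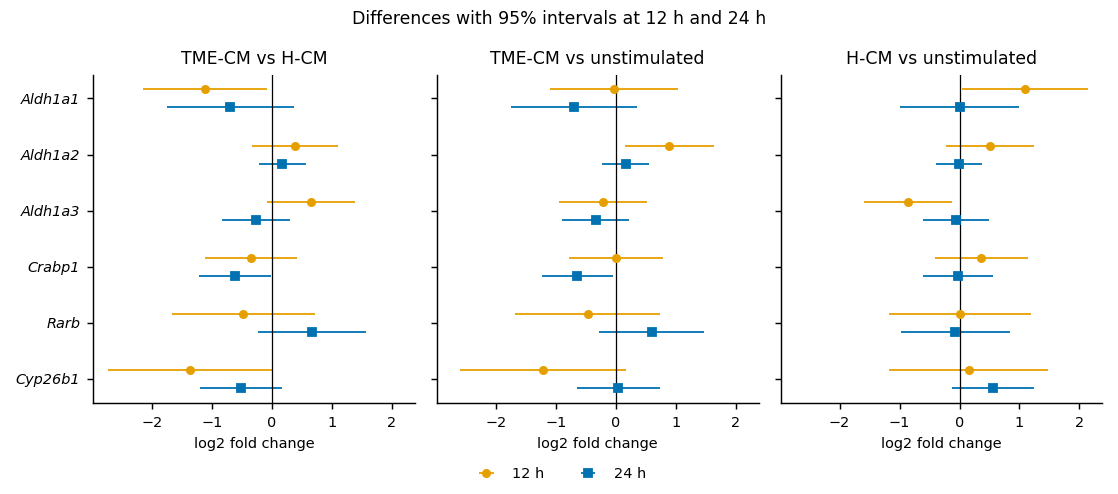
Log2 fold changes with 95% intervals of the 6 more abundant retinoid genes for TME-CM against H-CM, TME-CM against unstimulated and H-CM against unstimulated EGCs at 12 h (orange circles) and 24 h (blue squares). Most intervals cross 0, and at 24 h Crabp1 reaches -0.62 (-1.22 to -0.02) for TME-CM against H-CM.

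Set against all genes tested by edgeR at an adjusted p under 0.05, the count of 0 members called can be read as follows. TME-CM against H-CM EGCs called 0 of 5 members at 6 h, where 0.0972% of 9256 genes were called, 0 of 6 at 12 h (background 1.89% of 12156) and 0 of 6 at 24 h (5.4% of 12713). TME-CM against unstimulated EGCs called 0.454%, 4.41% and 9.52% of all genes in order of time, and H-CM against unstimulated EGCs 0%, 0.403% and 2.03%, again with 0 members. A count of 0 among 5 or 6 genes is near these background shares. DESeq2 also called 0 members in each comparison. At an unadjusted p under 0.05, 1 of 6 members passed for TME-CM against H-CM at 12 h (Aldh1a1) and 1 at 24 h (Crabp1), 1 for TME-CM against unstimulated EGCs at 12 h (Aldh1a2) and 1 at 24 h (Crabp1), and 2 for H-CM against unstimulated EGCs at 12 h (Aldh1a1 and Aldh1a3). Over all genes, 1288 of 12156 and 2036 of 12713 passed for TME-CM against H-CM EGCs at 12 h and 24 h. For TME-CM against unstimulated EGCs the numbers were 1492 and 2438, and for H-CM against unstimulated EGCs at 12 h 688. The small member counts were not tested against these shares. The median log2 fold change of the members for TME-CM against H-CM was -0.42 at 12 h and -0.39 at 24 h, beside 0.00 for all genes at both times. The comparisons at one time share their groups and are not independent of each other.

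Between 12 h and 24 h, 7 members were tested. Calls numbered 0 of 7 in unstimulated EGCs (background 0.0153% of 13105 genes), 0 of 7 in H-CM EGCs (0.00763%) and 0 of 7 in TME-CM EGCs (0.626%). The change of the difference of TME-CM from H-CM EGCs between these times was called for 0% of all genes and for 0 of 7 members, with 436 genes at an unadjusted p under 0.05. At an unadjusted p under 0.05, only Cyp26b1 in TME-CM EGCs passed among the members, where 1034 of all 13105 genes did. The log2 fold changes of 24 h against 12 h in unstimulated EGCs were 0.69 for Crabp1 (0.00 to 1.37, adjusted p = 0.945), 0.27 for Aldh1a2, 0.04 for Aldh1a1, -0.39 for Aldh1a3, -0.18 for Rarb, -0.17 for Cyp26b1 and -0.47 for Stra6. In H-CM EGCs they were -1.06 for Aldh1a1 (-2.16 to 0.03, adjusted p = 0.801), 2.82 for Stra6 (-0.09 to 5.72, adjusted p = 0.801), -0.24 for Aldh1a2, 0.40 for Aldh1a3, 0.29 for Crabp1, -0.24 for Rarb and 0.26 for Cyp26b1. Beside Cyp26b1 and Stra6, TME-CM EGCs had 0.90 for Rarb (-0.14 to 1.93), -0.59 for Aldh1a1, -0.44 for Aldh1a2, -0.50 for Aldh1a3 and 0.06 for Crabp1. The change of the TME-CM to H-CM difference, -0.90 for Aldh1a3, was -2.97 for Stra6 (-6.39 to 0.44), 1.14 for Rarb, 0.85 for Cyp26b1, 0.47 for Aldh1a1, -0.24 for Crabp1 and -0.20 for Aldh1a2. The highest of the 9 group means belonged to a different group in each of the 6 abundant members: TME-CM at 12 h for Aldh1a2, H-CM at 12 h for Aldh1a1, TME-CM at 6 h for Aldh1a3, unstimulated at 24 h for Crabp1, unstimulated at 6 h for Rarb and H-CM at 24 h for Cyp26b1. Except for Aldh1a2 in TME-CM against unstimulated EGCs at 12 h, the libraries of every tested pair of groups overlapped. The share of all genes without overlap was not computed, so this separation and those given below for other retinoid genes have no background to be read against.

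Other genes of retinoid handling were taken from lists of 67 symbols, of which 37 were tested at 6 h, 41 at 12 h and 43 at 24 h. At 6 h, edgeR called 0, with 2 at an unadjusted p under 0.05 for TME-CM against H-CM, 1 for TME-CM against unstimulated and 0 for H-CM against unstimulated EGCs, and DESeq2 called 0. Of all 9256 genes tested at 6 h, 562, 573 and 58 were under 0.05 in the same order. In TME-CM against H-CM EGCs, 2 of 41 were called higher and 0 lower at 12 h, where 1.89% of all genes were called, and 5 of 43 higher and 0 lower at 24 h, where 5.4% were. The median log2 fold change of those tested was -0.01 at 12 h and 0.08 at 24 h, beside 0.00 for all genes at both times. Against unstimulated EGCs, TME-CM EGCs had 2 called higher at 12 h (4.41% of all genes called) and 6 at 24 h (9.52%), with 0 lower. H-CM against unstimulated EGCs had 0 higher and 1 lower, Tgm2, at 12 h (0.403% of all genes called) and at 24 h (2.03%). The 12 h call of Tgm2 was lost on leaving out any 1 of the 8 libraries, with adjusted p of 0.0523 to 0.248.

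Most of the 13 genes of uptake and storage were too sparse to test, with 5 tested at 24 h. Lrat, which esterifies retinol for storage, had reads in 5 libraries, and Ttr, the blood partner of Rbp4, in 9.

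Among 13 receptors and cofactors, 12 were tested. In TME-CM against H-CM EGCs 1, Fabp5, was called at 12 h and at 24 h, where 1.89% and 5.4% of all genes were. Fabp5 encodes a fatty acid binding protein that also carries retinoic acid, and its counts are uncertain where reads also match near-identical copies, which the authors discarded. It measured 60.4, 55.6, 51.3 and 48.8 CPM in unstimulated EGCs at 12 h, 51.0, 64.9, 61.2 and 59.3 CPM in H-CM EGCs, and 118, 136, 115 and 99.8 CPM in TME-CM EGCs. Its TME-CM libraries stood apart from all others, also at 24 h, where they ran from 108 to 139 CPM against 55.5 to 70.4 CPM in H-CM EGCs. Against H-CM EGCs its log2 fold change was 0.99 (0.62 to 1.36, adjusted p = 0.00325) at 12 h and 1.01 (0.72 to 1.3, adjusted p = 7.70e-05) at 24 h. The retinoic acid receptors Rara and Rarg had log2 fold changes of -0.27 and 0.39 against H-CM EGCs at 24 h, with adjusted p of 0.509 and 0.226, and their partner Rxra -0.28 with 0.468. Rxrg had reads in 7 libraries.

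Of 3 cytochrome genes in the lists, 1 was tested. Cyp1b1, a cytochrome that oxidizes retinol and retinal as well as estrogens and aromatic compounds, had 62.3, 54.9, 55.3 and 57.2 CPM in H-CM EGCs at 12 h and 104, 107, 118 and 114 CPM in TME-CM EGCs. The groups did not overlap, with a log2 fold change of 0.95 (0.59 to 1.32, adjusted p = 0.00399). Means at 24 h were 53.5 ± 6.25 and 96.7 ± 5.75 CPM, and the log2 fold change was 0.86 (0.55 to 1.17, adjusted p = 7.08e-04). In one model of all 36 libraries, both calls of Cyp1b1 against H-CM EGCs were lost, with adjusted p of 0.161 at 12 h and 0.347 at 24 h. Cyp26a1, the family member most strongly induced by retinoic acid in many cells, had reads in 8 libraries, and Cyp26c1 in none.

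Of 18 retinol and retinal enzymes, 9 were tested at 24 h and none was called in TME-CM against H-CM EGCs, where 5.4% of all genes were. Rdh10, which makes retinal, and Dhrs3, which turns it back to retinol, were both higher in TME-CM than in unstimulated EGCs at 24 h. Rdh10 rose by a log2 fold change of 0.86 (0.40 to 1.33, adjusted p = 0.0129) from a mean of 15.0 ± 3.02 to 27.4 ± 3.94 CPM. Dhrs3 rose by 0.60 (0.26 to 0.94, adjusted p = 0.0181) from 51.5 ± 7.32 to 78.7 ± 17.7 CPM. The call of Rdh10 was lost without unstimulated replicate 2 (adjusted p = 0.0593) or TME-CM replicate 4 (0.0578), and that of Dhrs3 without any 1 of TME-CM replicates 1 and 2 and unstimulated replicates 2 and 4 (up to 0.0792). In one model of all 36 libraries, the adjusted p was 0.880 for Rdh10 and 1.0 for Dhrs3.

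Of 20 genes known to be induced by retinoic acid, 16 were tested at 24 h. In TME-CM against H-CM EGCs 2 were called higher, where 5.4% of all genes were called in either direction. Against unstimulated EGCs 1 was called higher, where 9.52% of all genes were called. The median log2 fold change of the 16 was 0.06 against H-CM and -0.03 against unstimulated EGCs. Tgm2, a transglutaminase, had 67.3, 56.0, 49.3 and 53.3 CPM in unstimulated EGCs, 32.6, 32.7, 26.5 and 20.8 CPM in H-CM EGCs, and 38.0, 45.2, 65.8 and 43.9 CPM in TME-CM EGCs. H-CM EGCs lay below both other groups. Its log2 fold change was 0.76 (0.38 to 1.14, adjusted p = 0.0131) for TME-CM against H-CM and -0.98 (-1.36 to -0.60, adjusted p = 0.00383) for H-CM against unstimulated EGCs. Cd38, an enzyme that consumes NAD, had means of 14.1 ± 1.69, 7.25 ± 1.47 and 6.97 ± 1.92 CPM in TME-CM, H-CM and unstimulated EGCs, with a log2 fold change of 0.99 (0.44 to 1.54, adjusted p = 0.0272) against H-CM EGCs. The Hox genes of this list did not pass the test in TME-CM against H-CM EGCs, with -0.16 for Hoxa5 and -0.09 for Hoxb5 at 24 h, nor did Ret, the receptor of enteric precursors, with -0.21. The call of Cd38 was lost without any 1 of TME-CM replicates 1 and 4 and H-CM replicates 2 and 3, and that of Tgm2 against H-CM EGCs without any 1 of TME-CM replicate 3 and H-CM replicates 3 and 4, with adjusted p of up to 0.142 and 0.0833. In one model of all 36 libraries, Tgm2 and Cd38 had an adjusted p of 1.0 in each of these 24 h comparisons.

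**Figure D4:**
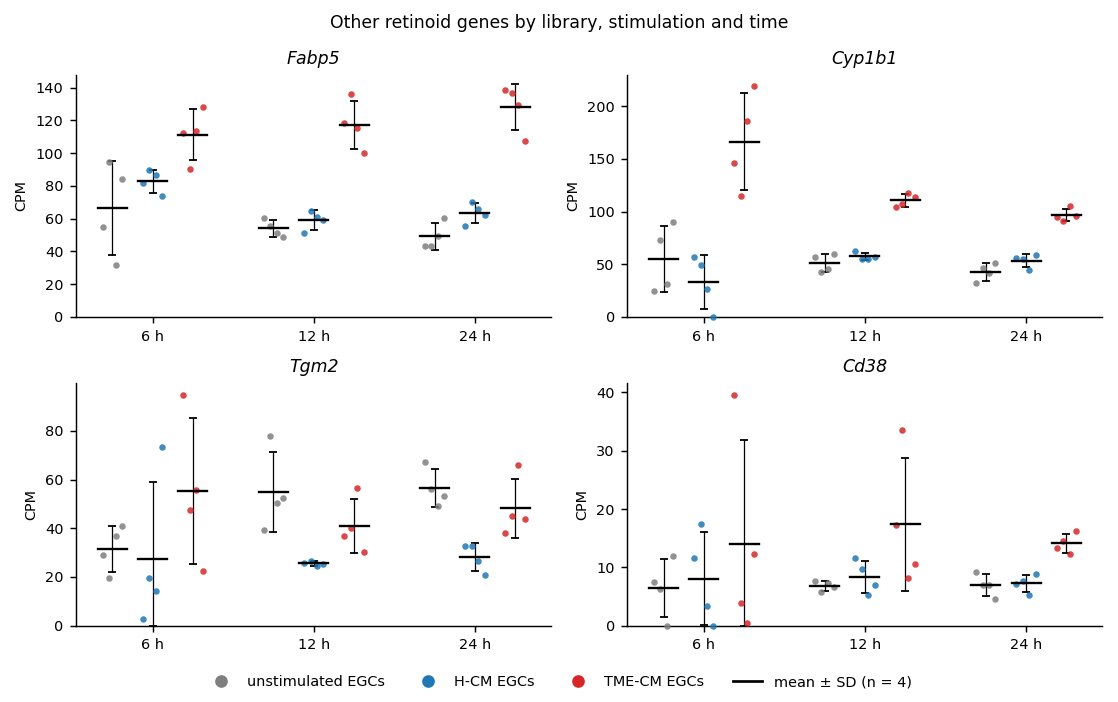
CPM of 4 other retinoid genes called in TME-CM against H-CM EGCs at 24 h, in each library (points, colored by stimulation) at the 3 times, with the mean and SD of 4 libraries (lower SD bars stop at 0). At 24 h the TME-CM libraries of Fabp5, Cyp1b1 and Cd38 lie above every other library, and for Tgm2 the H-CM libraries lie lowest. The genes are shown because they were called there, so this separation is no further support for the calls.

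Markers of other cells moved between the same groups. At 24 h the summed level of 8 smooth muscle markers was 8913 to 10622 CPM in unstimulated EGCs, 4263 to 5481 CPM in H-CM EGCs and 2439 to 3317 CPM in TME-CM EGCs, with 5 of 7 tested called lower in TME-CM than in H-CM EGCs, and Myocd with reads in 5 libraries. The 8 fibroblast markers summed to 6390 to 7938, 5233 to 5931 and 6519 to 8213 CPM in the same order. In TME-CM EGCs 4 of 8 were called higher than in H-CM EGCs, and 2 higher and 2 lower than in unstimulated EGCs. The 10 glial markers summed to 230 to 265, 270 to 293 and 243 to 320 CPM. In TME-CM against H-CM EGCs 0 of 9 tested were called, where 5.4% of all genes were. In that contrast 2 of 3 markers of interstitial cells of Cajal and 1 of 2 tested endothelial markers were called lower. Of the tested neuron and macrophage markers, 0 of 7 and 0 of 6 were called. The part of these cells in the levels of Crabp1, Stra6, Fabp5, Cyp1b1, Tgm2 and Cd38 was not tested.

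The genes whose log2 CPM ran most like each member over the 24 libraries of 12 h and 24 h were taken from the 10032 genes averaging 5 CPM or more. For Aldh1a1 they were Chchd10 (Pearson r = 0.78), Igf2 (0.75) and Bpgm (0.75). For Aldh1a2 they were Malsu1 (0.83), Tmbim6 (0.83) and Chmp5 (0.81), and for Aldh1a3 Zfc3h1 (0.78), Klf6 (0.77) and N4bp2 (0.77). Cyp26b1 ran most like Ccdc112 (0.84) and Ttc28 (0.80), Crabp1 like Acaa2 (0.71), Mrpl46 (0.67) and Scoc (0.66), and Rarb like Smg8 (0.62), Raly (0.61) and Cfl2 (0.59). No member was among the 3 genes most like another member. These are the highest of many values over 24 libraries that share treatment, time and depth.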

How the data were processed

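The deposited values are raw counts per gene symbol in 36 libraries, made by the authors with the QuantSeq 3′ kit, FastQC 0.11.7, an adapter filter, HISAT2 alignment to mm10, removal of reads mapping to several loci, SAMtools 1.5 and HT-seq Count. The annotation, the strand setting and use of molecular identifiers are not given in the sources used here. Total counts ran from 13518 to 7552509 per library, and counting intervals (95%, exact) cover counting error only.

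Counts were tested in R 4.3.3 with edgeR 4.0.16 (filterByExpr with minimum count 10, TMM factors, robust quasi-likelihood fit with one mean per group, Benjamini-Hochberg adjustment over all genes tested, calls under 0.05). Each time point was fitted on its 12 libraries, and time was tested on the 24 libraries of 12 h and 24 h. Correlations used log2 CPM with a prior count of 2. The fit was tested on simulated data. No pair of libraries of a group agreed within sampling noise.

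The 9 genes, the pathway and marker lists and the tests were chosen with earlier results of these data known. Members are named in each comparison where they were tested, other retinoid genes when called in TME-CM against H-CM EGCs at 12 h or 24 h, and for each member with a mean of at least 5 CPM the 3 most similar genes. Rdh10, Dhrs3, Rara, Rarg, Rxra, Lrat, Ttr, Rxrg, Cyp26a1, Cyp26c1, Hoxa5, Hoxb5 and Ret were named after their values were seen. A few genes that these rules select are not reported here. Alternatives were DESeq2 1.42.0, its size factors, no filter, Yam1 left out, the replicate number as a block, other sets of libraries in the model and each library left out. Positions are from GENCODE vM21, promoter sequences from RefSeq.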

Additional observations from a re-analysis of the deposited data

Results flagged for a closer look

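Among 57 groups of 4 libraries with at least 10 reads of a member, 7 held a library far from its group, by Dixon's ratio of the gap to the range of log2 CPM above its 95% critical value. Chance flags about 1 in 20 groups of normally distributed values, a rate that need not hold for sparse counts with ties at 0. At 6 h the ratio was 0.8731 for Aldh1a2 in H-CM replicate 4, which had no read of it and the lowest depth of the series, and 1 for Stra6 in unstimulated replicate 4, at 9.16 CPM with no read in the other libraries. At 12 h, in TME-CM EGCs, it was 0.8675 for Aldh1a3 in replicate 2 (12.4 CPM), 0.8447 for Crabp1 in replicate 3 (10.3 CPM) and 0.9889 for Stra6 in replicate 3 (0.202 CPM). At 24 h, in H-CM EGCs, it was 0.8441 for Aldh1a3 in replicate 2 (28.8 CPM) and 0.8789 for Cyp26b1 in replicate 1 (5.97 CPM). The causes of these values were not tested.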

How the results depend on the processing

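The count of 0 members called held under every alternative in 9 of 13 comparisons. Leaving out each library in turn, the count ran from 0 to 1 for TME-CM against H-CM at 12 h (Aldh1a2, without H-CM replicate 3) and at 24 h (Crabp1, without TME-CM replicate 4), and from 0 to 1 for TME-CM against unstimulated EGCs at 24 h (Crabp1 without TME-CM replicate 4, and Stra6, which then passed the filter, without TME-CM replicate 2 or unstimulated replicate 4, with adjusted p of 0.0242 and 0.0495). It was 1 for TME-CM against unstimulated EGCs with no filter at 24 h (Stra6) and in the fit of only these groups at 12 h (Aldh1a2). Of 1181 alternative log2 fold changes, 69 changed sign, none of a value with p under 0.05. Same-numbered libraries correlated at -0.16 to 0.22, which neither shows nor excludes a pairing by number. With the replicate number as a block, the count of members called stayed 0, while the call of Tgm2 in H-CM against unstimulated EGCs at 12 h was lost (adjusted p = 0.0873). In one model of 36 libraries, other retinoid genes called for TME-CM against H-CM EGCs numbered 1 at 12 h and 1 at 24 h (Fabp5), in place of 2 and 5, those for TME-CM against unstimulated EGCs at 24 h 2 in place of 6, those for H-CM against unstimulated EGCs 0 in place of 1 (Tgm2) at 12 h and at 24 h, and at 6 h that model called 4 against H-CM and 5 against unstimulated EGCs in place of 0. Fabp5 was called in 15 of 15 alternatives in each of its comparisons. The call of Tgm2 at 12 h was lost in 11 of 15 alternatives, also without any 1 library. Causes were not tested. The depth of the 6 h libraries and of Stra6, Rbp4 and Crabp2 limits what can be seen there.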
